A study of Mus musculus with 6 samples.

Results

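The interferon-linked PARPs are the members of the poly(ADP-ribose) polymerase family whose genes are known to be induced by interferon. The 6 genes described here are Parp9, its partner Dtx3l, Parp14, Parp10, Parp12 and Zc3hav1. They were chosen by name, with earlier results of these data known. All 6 were found among the 41819 genes of the count table and passed the filter on low counts, which left 11509 genes. With the dishes taken as unpaired, none of them differed between the groups beyond the spread between dishes at a false discovery rate (FDR) of 0.05. The mean of each was nevertheless lower in cells expressing human PARG (hPARG).

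PARPs transfer ADP-ribose from NAD to proteins. Most enzymes of this group add a single ADP-ribose unit, whereas PARP1 builds the long chains (pADPr) that PARG degrades. Interferon reaches these genes through JAK kinases and transcription factors of the STAT and IRF families, which bind the interferon-stimulated response element (ISRE) or the gamma-activated site (GAS). In fibroblasts the products take part in antiviral defence.

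The cells were mouse 3T3 embryonic fibroblasts, from a single clone that carries a lentiviral TetOne cassette for hPARG, kept in puromycin. The study describes the cassette with an mClover3 reporter, which its RNA-seq section leaves out of the name of the clone. Control dishes (3) received no doxycycline (DOX), and hPARG dishes (3) received 500 ng/ml DOX for 72 h. Both groups carry the cassette, and with no dish of cassette-free cells in DOX, an effect of DOX and one of hPARG cannot be told apart. Replicates are dishes of the same clone, so p-values measure the spread between dishes of that clone only.

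Count totals lay between 21619908 and 25263818 per dish. Both dishes numbered 2 stood apart from the other 4, and values with and without them are given for the 6 genes. Replicates are called dishes after the study's methods, while the labels name wells of a plate. The 9 fibroblast markers (Col1a2 and Vim among them) all passed the filter and summed to between 7215 and 8400 CPM (counts scaled to a common library total) in control and 8306 to 9534 in hPARG dishes, while the leukocyte, epithelial and endothelial marker lists summed to at most 18.7, 0.519 and 1.37 CPM in any dish. Of the 6 leukocyte markers, 3 passed the filter: Cd68 (11 to 23 counts per dish), Lyz2 (101 to 196) and Cd14 (140 to 246). The macrophage marker Adgre1 was at 0 counts in every dish. The part of these markers in the results was not tested. The cassette encodes the human enzyme and has no row in the table of mouse genes. The mouse gene Parg had 1246, 1317 and 1032 counts in the control dishes against 1095, 1400 and 1096 in the hPARG dishes, in order of dish number, and edgeR gave it a log2 fold change of 0.04 (SE 0.112, FDR = 0.999, where SE is the standard error).

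The genes Parp14, Dtx3l and Parp9 lie side by side on chromosome 16 (GRCm38), within 139732 bases. Parp14 (35832874 to 35871544, minus strand) is separated from Dtx3l (35926511 to 35939151, minus strand) by 54966 bases. Parp9 (35938470 to 35972605, plus strand) stands head to head with Dtx3l, and the 2 gene models share 682 bases, of which 458 are exonic in both. These 458 bases make up 9.4% of the exon bases of Parp9 and 8% of those of Dtx3l. The strand setting of the counting is not given in the sources used here, so reads from this stretch may have been counted for either gene. Zc3hav1 (38305286 to 38354603) and Parp12 (39086410 to 39118349) lie on the minus strand of chromosome 6, 731806 bases apart. Parp10 (76231174 to 76243441, minus strand) lies on chromosome 15, where 4.8% of its exon bases overlap exons of Plec on the same strand.

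RefSeq promoter sequences (GRCm38.p6) were at hand for 3 members, Dtx3l, Parp12 and Zc3hav1. The bases just upstream of each start are shown in lower case on the strand of the gene, for Dtx3l because Parp9 starts beside it, for Parp12 because it was the member whose groups did not overlap, and for Zc3hav1 because its window held a motif match, in capitals. The Dtx3l stretch is chr16:35939152-35939277, cut at the GENCODE start of the gene, that of Parp12 is chr6:39118350-39118599 and that of Zc3hav1 is chr6:38354604-38354853.
Dtx3l: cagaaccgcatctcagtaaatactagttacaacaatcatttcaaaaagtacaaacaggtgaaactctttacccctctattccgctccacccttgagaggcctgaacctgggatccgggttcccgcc
Parp12: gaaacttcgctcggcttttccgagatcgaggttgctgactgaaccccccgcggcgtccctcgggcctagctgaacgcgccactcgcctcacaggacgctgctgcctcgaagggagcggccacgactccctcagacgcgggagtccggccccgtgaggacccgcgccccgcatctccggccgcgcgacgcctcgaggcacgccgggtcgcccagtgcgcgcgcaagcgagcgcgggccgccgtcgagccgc
Zc3hav1: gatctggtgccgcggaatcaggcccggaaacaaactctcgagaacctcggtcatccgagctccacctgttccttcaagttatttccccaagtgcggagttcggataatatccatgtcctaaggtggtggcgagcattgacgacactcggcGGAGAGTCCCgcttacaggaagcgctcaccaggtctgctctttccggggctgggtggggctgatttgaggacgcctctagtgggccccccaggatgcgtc

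Motifs were searched in the full 250 bases before the RefSeq start, for Dtx3l including the bases inside its gene model that are not printed. None of the 3 promoters held the ISRE core on either strand, here GAAA repeated after any 2 bases, which occurs in 2.98% of 32851 mouse promoter windows of this length. The GAS core TTCNNNGAA, which reads the same on both strands, was in none of the 3 and in 7.02% of all windows. The kappa-B consensus, searched on both strands, was matched once, in Zc3hav1 from 100 to 91 bases before the start, and is found in 7.25% of all windows. The Parp12 window was rich in GC (73.6%) and held 41 CpG dinucleotides, against a median of 52.4% and 6 over all windows. These letters describe the windows alone, since binding was not measured.

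Parp9 is a macrodomain protein that forms a stable complex with Dtx3l, an E3 ubiquitin ligase, and acts in the DNA damage response and in interferon signalling. In order of dish number, Parp9 stood at 41.2, 33.0 and 38.2 CPM in the control and at 38.0, 30.3 and 32.6 CPM in the hPARG group (CPM with trimmed mean of M-values, TMM, normalisation). The groups overlapped, and in each of them dish 2 was the lowest. The mean went from 37.5 ± 4.12 to 33.6 ± 3.91 CPM (SD, n = 3), and the fitted log2 fold change was -0.16 (SE 0.13, 95% interval -0.46 to 0.14, FDR = 0.999 by edgeR's quasi-likelihood test). With a dish left out in turn it lay between -0.25 (without hPARG dish 1) and -0.08 (without control dish 1).

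Dtx3l stood at 22.7, 26.3 and 19.7 CPM in control and at 18.0, 23.7 and 19.2 CPM in hPARG dishes. Here dish 2 was the highest of its group in both, opposite to Parp9, and the groups overlapped. The log2 fold change was -0.17 (SE 0.153, 95% interval -0.53 to 0.18, FDR = 0.999, edgeR), and with a dish left out it lay between -0.30 (without hPARG dish 2) and -0.06 (without control dish 2). The ratio of Parp9 counts to Dtx3l counts within a dish, which does not depend on library scaling, was 1.82, 1.26 and 1.95 in control and 2.11, 1.28 and 1.70 in hPARG dishes. The mean log2 ratio differed by 0.02 between the groups (two-sided exact permutation p = 0.9, where 3 against 3 dishes cannot give less than 0.1). The spread of this ratio within a group (SD 0.339 in control and 0.362 in hPARG dishes, log2) was thus larger than the difference between groups.

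Parp14, the largest member, carries several macrodomains and a mono-ADP-ribosyltransferase domain and is known as a co-activator of STAT6. It stood at 16.6, 31.2 and 18.1 CPM in control and at 12.8, 21.5 and 13.8 CPM in hPARG dishes. Dish 2 was far above the other 2 dishes of its group in both, and because hPARG dish 2 exceeded control dishes 1 and 3, the groups overlapped. The mean went from 22.0 ± 8.05 to 16.0 ± 4.77 CPM (SD, n = 3). The fitted difference, -0.45 on the log2 scale (SE 0.287, FDR = 0.999, edgeR), was the largest among the members and the least precise, with a 95% interval from -1.12 to 0.21 that includes a 2-fold decrease. With a dish left out in turn it lay between -0.72 and -0.11, the latter without control dish 2 and the former without hPARG dish 2.
Without both dishes numbered 2, an alternative added after the values were seen, the log2 fold change of Parp14 was -0.38 (SE 0.122, FDR = 0.44, edgeR). The ratio of Parp14 to Dtx3l counts was 0.732, 1.19 and 0.921 in control and 0.714, 0.908 and 0.718 in hPARG dishes, a difference in mean log2 ratio of -0.26 (two-sided exact permutation p = 0.2). This difference was -0.08 without control dish 2 and -0.43 without control dish 1.

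Parp10, a mono-ADP-ribosyltransferase first described as a partner of MYC, stood at 23.7, 28.1 and 21.8 CPM in control and at 20.4, 22.3 and 17.2 CPM in hPARG dishes. One hPARG dish, number 2, lay above the lowest control dish, number 3. The log2 fold change was -0.30 (SE 0.143, 95% interval -0.63 to 0.04, FDR = 0.999, edgeR), and with a dish left out it lay between -0.38 (without hPARG dish 2) and -0.19 (without control dish 2).

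Parp12, a mono-ADP-ribosyltransferase with CCCH zinc fingers, was the member whose groups were fully apart. It stood at 21.2, 20.4 and 20.5 CPM in control and at 18.7, 15.8 and 14.3 CPM in hPARG dishes. All hPARG dishes lay below all control dishes, as for 6% of the tested genes. The reverse, all hPARG dishes above all control dishes, held for 3.61% of the tested genes and for 0 of the 6 members. The control dishes were close together (20.7 ± 0.428 CPM, SD, n = 3) and the hPARG dishes less so (16.2 ± 2.25 CPM, SD, n = 3), and dish 2 did not stand apart in either group. The log2 fold change of -0.35 (SE 0.124, 95% interval -0.63 to -0.06) had an unadjusted p of 0.0238 in edgeR's quasi-likelihood test, and its FDR was 0.999. An unadjusted p under 0.05 with a lower mean was found for 2.54% of the tested genes. With single dishes omitted, Parp12 ranged from -0.46 (no hPARG dish 1) to -0.26 (no hPARG dish 3) on the log2 scale. In the same quasi-likelihood test, its unadjusted p exceeded 0.05 without control dish 1 (0.0772), hPARG dish 2 (0.0532) or hPARG dish 3 (0.0872). It stayed under 0.05 without control dish 2 (0.0376), control dish 3 (0.0491) or hPARG dish 1 (0.00715).

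Zc3hav1 (ZAP, also PARP13) has a PARP-like domain without catalytic activity and binds CpG-rich viral RNA through CCCH zinc fingers to direct its decay. It stood at 136, 169 and 126 CPM in control and at 123, 163 and 130 CPM in hPARG dishes. The groups overlapped almost entirely, and dish 2 was again the highest in both. The fitted log2 value was -0.06 (SE 0.154, 95% interval -0.41 to 0.30, FDR = 0.999, edgeR), and it turned positive without control dish 2 (0.08) and without hPARG dish 1 (0.02).

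**Figure D1:**
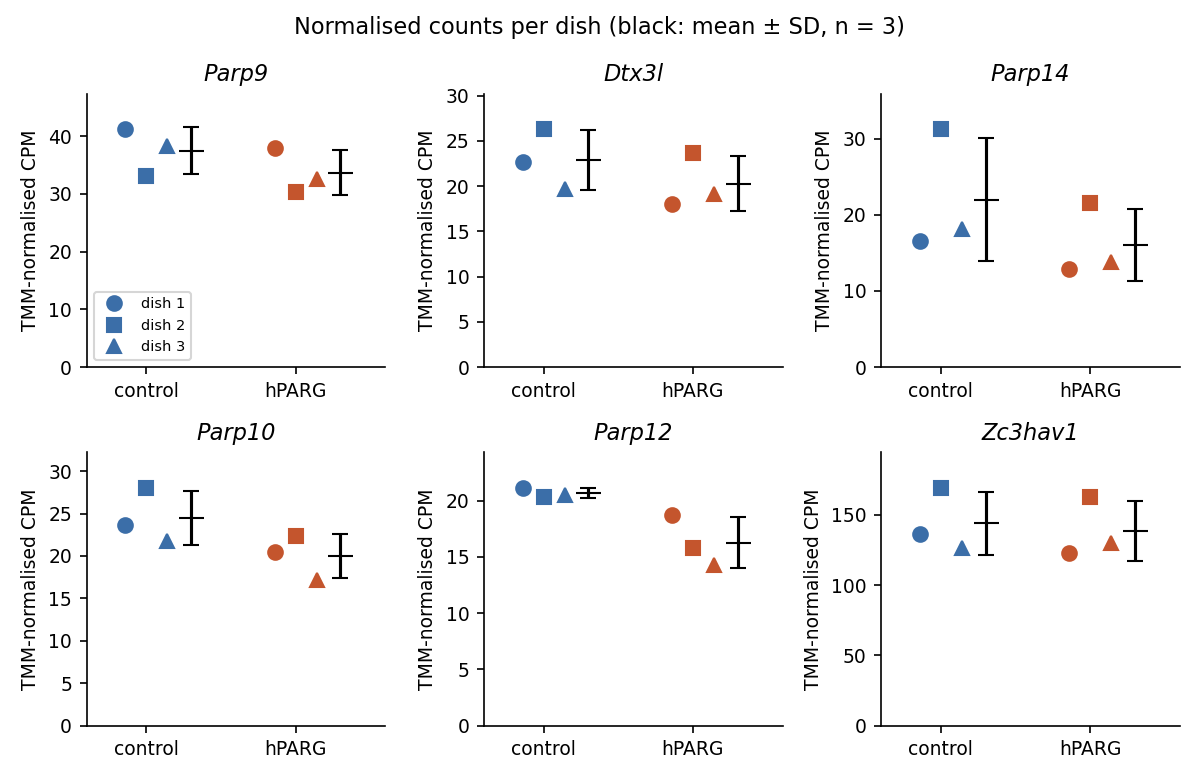
TMM-normalised CPM (y axis, from 0) of each gene in the control (blue) and hPARG (orange) dishes, with dish numbers as symbols and the mean ± SD (n = 3) in black. The groups are apart for Parp12 and overlap for the other 5 genes, and dish 2 is the highest of its group for Dtx3l, Parp14, Parp10 and Zc3hav1.

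Counted over the 6 genes, 0 passed the study's rule of an FDR under 0.05 with a more than 2-fold difference. At any fold, 0 passed the FDR as well. Of the tested genes, 0.0869% passed the FDR, with or without the fold rule. At an unadjusted p under 0.05 there was 1 (Parp12) in edgeR, against 3.95% of the tested genes. DESeq2 also gave 1, against 448 of the 12666 genes in its fit. An FDR of 0.05 in DESeq2 was passed by 0 of the 6, against 48 of those genes. All 6 had a log2 fold change under 0, as did 49.1% of the tested genes. Their median was -0.23, with a range from -0.45 to -0.06, while the median over all tested genes was 0.00. A bulk measurement cannot tell fewer cells expressing a gene from less RNA per cell.
Without both dishes numbered 2, all 6 log2 fold changes remained under 0, with a median of -0.23, and 0 passed the FDR. In that fit, 40 of 11589 tested genes passed the FDR, and the median over all of them was 0.005. Besides Parp14, given above, Parp9 had -0.17, Dtx3l -0.19, Parp10 -0.27, Parp12 -0.33 and Zc3hav1 -0.05 in that fit. An unadjusted p under 0.05 with a lower mean was then found for 3 of the 6 (Parp14, Parp10 and Parp12), against 3.3% of the genes tested in that fit. The 95% intervals of the 5 genes other than Parp14 did not reach a 2-fold decrease in the fit of all 6 dishes.

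**Figure D2:**
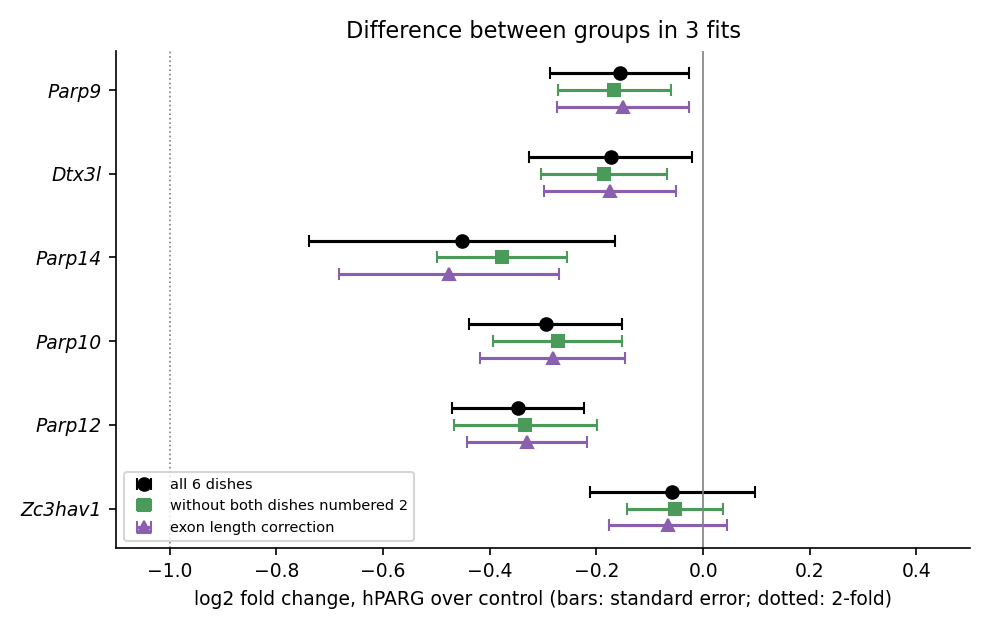
Log2 fold change of hPARG over control (x axis, bars are standard errors) for each gene in the edgeR fit of all 6 dishes (black), without both dishes numbered 2 (green) and after a correction for exon length (purple). All points lie left of 0, the standard errors shrink most for Parp14 without dishes 2 (0.287 to 0.122), and no point reaches the dotted line of a 2-fold decrease.

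The deviation of both dishes numbered 2 went with the exon length of the gene. Across the 11509 tested genes (which are not independent replicates), the log2 ratio of dish 2 to the other 2 dishes of its group, with 0.5 CPM added, followed exon length with Spearman's rho of 0.54 in control and 0.533 in hPARG dishes. Parp14 has 9306 exon bases, more than 87.5% of the tested genes, and its ratios were 0.83 and 0.67 in control and hPARG. Zc3hav1 (6518 bases) had 0.37 and 0.36, and Dtx3l (5725 bases) had 0.31 and 0.34. Parp12 (3995 bases) was near 0 in both, at -0.03 and -0.05. Parp10 (4275 bases) had 0.30 and 0.25, while Parp9, of similar length (4872 bases), had -0.26 and -0.21. For each member the deviation had the same sign and a like size in both groups. Over all tested genes, exon length and the log2 fold change of hPARG over control had a rho of 0.0963. With a correction for exon length, also added after the values were seen, Parp14 had -0.48 (SE 0.207, FDR = 0.92, edgeR) and all 6 values stayed under 0.

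**Figure D3:**
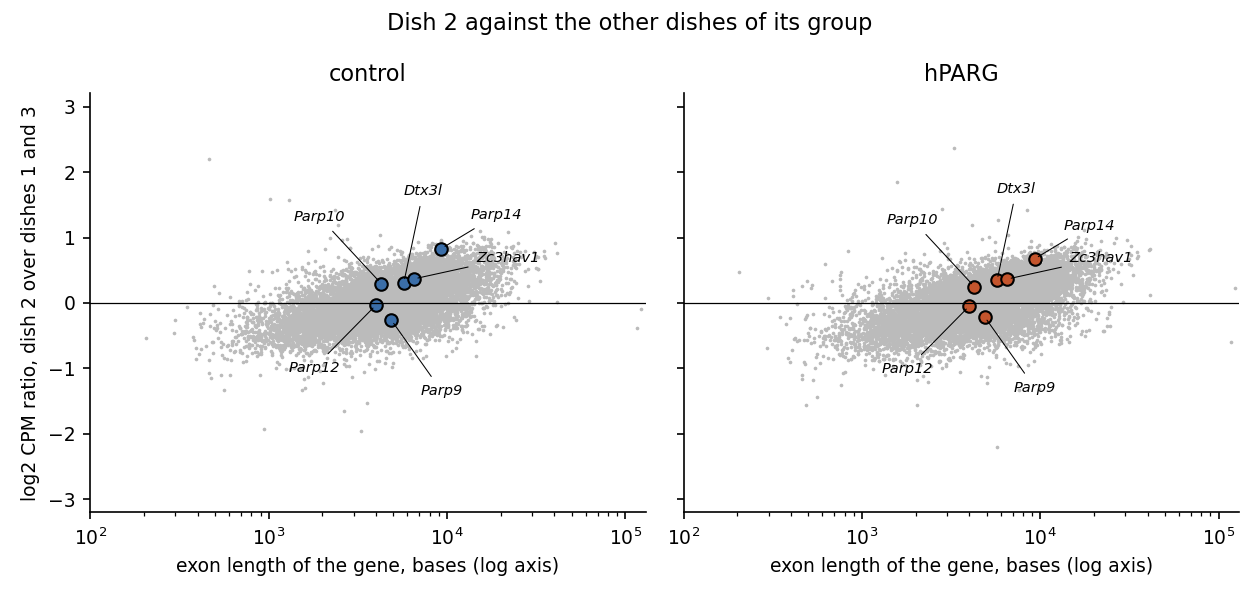
Log2 CPM ratio of dish 2 to dishes 1 and 3 (y axis) against exon length (x axis, log scale) for all tested genes (grey) and the 6 genes (coloured), in control and hPARG dishes. Parp14 is the highest of the 6 at 0.83 and 0.67, and Parp9 lies below 0 in both groups.

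On the scale of log2 CPM over the 6 dishes, Dtx3l went with Zc3hav1 (Pearson's r = 0.937), Parp14 (0.909) and Parp10 (0.817), and Parp14 with Zc3hav1 (0.892). Parp9 went against Zc3hav1 (-0.638), Parp14 (-0.414) and its neighbour Dtx3l (-0.362), and with Parp12 (0.72). These values describe 6 dishes that share dish 2's deviation and carry no test.

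Levels between genes were compared by the RPKM values of the deposited table (reads scaled by gene length and library total), whose gene lengths are not stated. Zc3hav1 was the highest, with 17.1, 18.6 and 24.9 RPKM as the lowest, median and highest of the 6 dishes. Parp9 followed with 6.82, 7.95 and 9.29 RPKM, then Parp10 (3.98, 5.29 and 7.06), Parp12 (3.90, 5.47 and 6.11), Dtx3l (2.86, 3.38 and 4.40) and Parp14 (1.57, 2.13 and 4.03).
The range of Zc3hav1 was apart from that of Parp9, at 2.05 to 3.40 times its level within a dish. The other 4 neighbours in this order had overlapping ranges, but Parp9 exceeded Parp10, Parp12 exceeded Dtx3l, and Dtx3l exceeded Parp14 within each of the 6 dishes. Parp10 and Parp12 did not differ beyond their spread, with Parp10 higher in 3 of 6 dishes, and their order turned without control dish 2 and without hPARG dish 2. Without control dish 2, 4 neighbours had ranges apart in place of 1, and without hPARG dish 2 or hPARG dish 3 there were 2. Parp9 was at 1.08 to 1.75 times the level of Parp10. Against the tested genes, the mean RPKM of Zc3hav1 exceeded that of 72.9%, Parp9 that of 48.8% and Parp14 that of 23.1%.

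**Figure D4:**
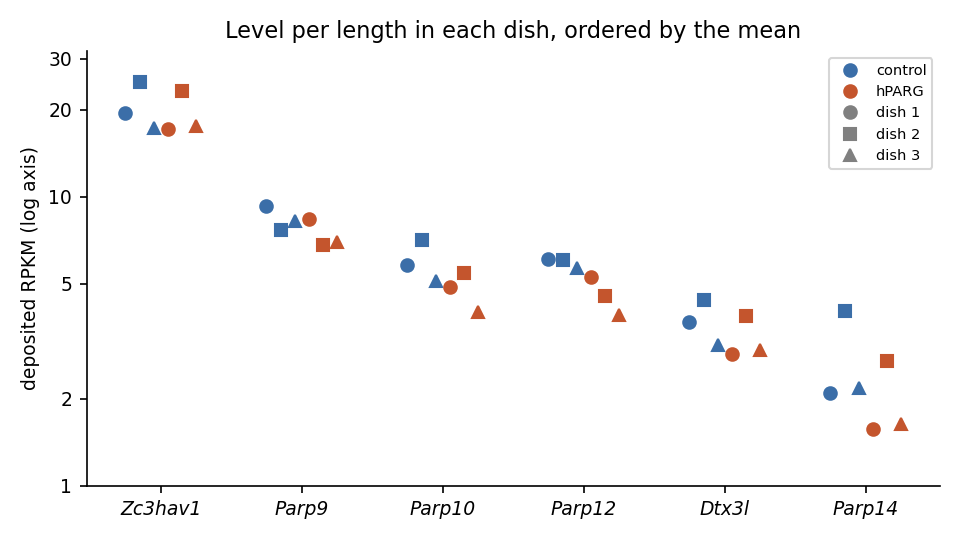
Deposited RPKM (y axis, log scale) of each gene in the 6 dishes, ordered by the mean, with group as colour and dish number as symbol. Zc3hav1 (17.1 to 24.9 RPKM) stands apart from the other genes, whose ranges overlap with their neighbours in the order.

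The nearest tested genes on each side of the members were looked at for comparison, so genes that failed the filter were passed over. Kpna1, an importin gene 6144 bases beyond Parp9, had a log2 fold change of 0.09 (SE 0.0879), and Hspbap1, 4396 bases beyond Parp14, had -0.21 (SE 0.101). Both had an FDR of 0.999 (edgeR). The hPARG dishes were entirely higher for Kpna1, as for 3.61% of all tested genes. They were entirely lower for Hspbap1, as for 6% of all tested genes. Next to Parp10, Plec had 0.16 and Grina 0.01. The nearest to Parp12 were Hipk2, 210244 bases away, with 0.41, and Kdm7a, 18273 bases away, with 0.14. Next to Zc3hav1, its paralog Zc3hav1l had 0.23 and Ttc26 -0.14. The groups of these 6 genes overlapped, and their FDR was 0.999.

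Transcripts of interferon itself were not detectable at this depth. Of 21 interferon ligand genes, a group looked at after values had been seen, 16 held 0 counts in every dish and the other 5 at most 2 counts in a dish, under the floor of 3 counts (0.119 to 0.139 CPM) that covers counting error only. Ifnb1, the fibroblast interferon, held 2 counts in 1 control dish and 0 in the others.

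Among 60 interferon-stimulated genes of a list written by hand with earlier results known, 59 passed the filter and 1 passed the FDR. That gene was Cxcl10, a chemokine, which fell from 29.7 ± 5.54 to 11.5 ± 0.236 CPM (SD, n = 3, log2 fold change -1.36, SE 0.15, FDR = 0.0266, edgeR). The count passing the FDR was 0 without control dish 3, without hPARG dish 1 or without hPARG dish 3. In the study's own comparison of these dishes and in its qPCR, Cxcl10 was lower as well. Mx1 and Mx2, antiviral GTPases, made up the 3 largest values with it. Mx1 had 18, 38 and 15 counts in control and 12, 10 and 4 in hPARG dishes, fitted at -1.39 on the log2 scale (SE 0.522, FDR = 0.999, edgeR). Mx2 had 56, 76 and 45 against 27, 26 and 29 counts, with -1.06 (SE 0.263, FDR = 0.683, edgeR). In both, all hPARG dishes lay below all control dishes.
Of the 59 genes, 55 had a log2 fold change under 0 (93.2%, against 49.1% of all tested genes), with a median of -0.22. The hPARG dishes lay entirely below the control dishes for 22 of them (37.3%, against 6% of all tested genes) and entirely above for 1. Without both dishes numbered 2, 49 of 59 were under 0 and the median was -0.19, against 0.005 over all genes tested in that fit. The median of the 6 members (-0.23) lay beside that of this list.

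Of 25 genes of the interferon receptors and the JAK-STAT chain, 5 of which are also in the list above, 25 passed the filter and 0 passed the FDR. A log2 fold change under 0 was found for 18 (72%, against 49.1% of all tested genes), with a median of -0.07. At an unadjusted p under 0.05 (edgeR) there were 4 lower (16%, against 2.54% of all tested genes) and 0 higher. The hPARG dishes lay entirely below the control dishes for 4 (16%, against 6% of all tested genes) and entirely above for 0. Among the largest values were those of Usp18, an ISG15 protease that restrains interferon signalling (-0.68, SE 0.242, FDR = 0.999, edgeR), and of the transcription factor Irf1 (-0.44, SE 0.112, FDR = 0.713, edgeR). Irf1 had 2433, 2196 and 2233 counts in control and 1768, 1605 and 1538 in hPARG dishes. In CPM the groups of Irf1 were apart, and those of Usp18 overlapped.

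The other PARP genes include the chain-building enzymes and the tankyrases. Of these genes, Parp11 is also in the interferon-stimulated list above (log2 fold change -0.02, SE 0.187, FDR = 0.999, edgeR). All 11 on the list passed the filter and 0 passed the FDR, with 6 under 0 and a median of -0.02. At an unadjusted p under 0.05 there were 0 (edgeR). The largest values were those of Parp8 (-0.14, SE 0.125), Tnks (0.12, SE 0.286) and Parp3 (0.11, SE 0.119), each with an FDR of 0.999. Of 6 ADP-ribose hydrolase genes, 5 passed the filter and 0 passed the FDR or an unadjusted p of 0.05 (edgeR), with values of 0.38 for Macrod1, -0.14 for Adprhl2 and -0.14 for Oard1. Of 15 genes listed as ZAP partners, its paralog or RNA decay factors linked to it, 15 passed the filter and 0 the FDR. An unadjusted p of 0.05 in edgeR was passed by 1 (Khnyn), against 3.95% of all tested genes. Khnyn, a nuclease that acts with ZAP, had 175, 141 and 124 counts in control and 172, 201 and 177 in hPARG dishes (log2 fold change 0.37, SE 0.125, FDR = 0.999, edgeR). Rnf135 (-0.25) and Zc3hav1l (0.23) followed. In CPM, the hPARG dishes lay entirely above the control dishes for 2 of the 15, Khnyn among them, against 3.61% of all tested genes. They lay entirely below for 1 of the 15, against 6% of all tested genes. Differences between these lists and the 6 members were not tested.

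**Figure D5:**
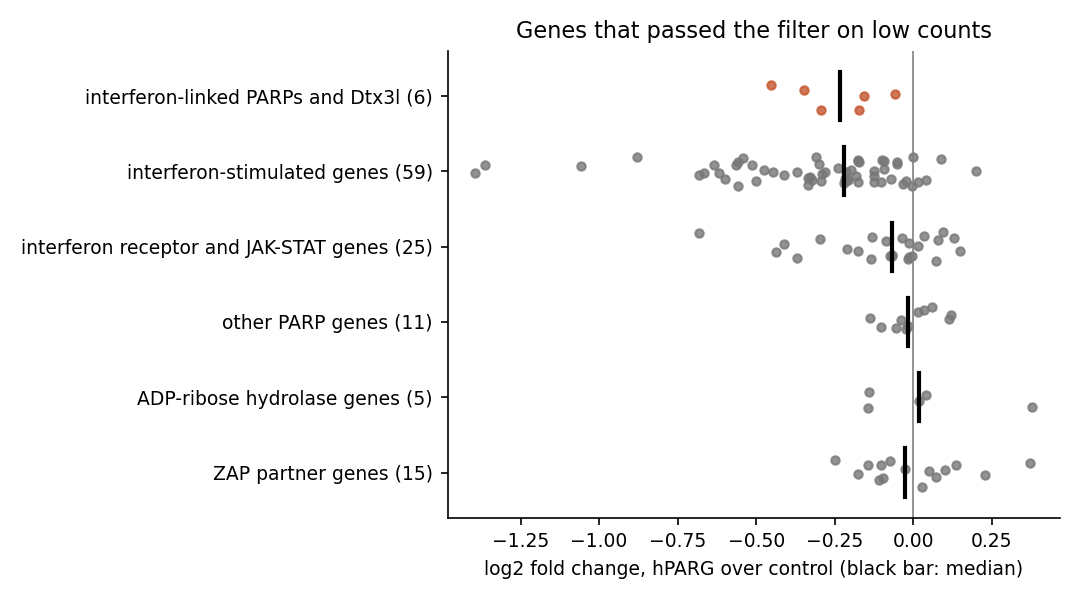
Log2 fold change of hPARG over control (x axis) for the 6 genes (orange) and the tested genes of each list (grey), with the number of genes in brackets and the median as a black bar. The medians are -0.23 for the 6 genes and -0.22 for the interferon-stimulated genes, and lie between -0.07 and 0.02 for the other 4 lists.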

How the data were processed

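RNA of 6 dishes (3 control, 3 hPARG) was sequenced from poly(A) libraries. The authors mapped trimmed reads to GRCm38 with Ensembl release 96 in CLC Genomics Workbench 12.0 and deposited whole-number counts per gene, which were used for all tests. The deposited RPKM values, scaled by the authors' software with a library total that is not stated, were used for levels between genes. The table's other columns (TPM, CPM and the authors' own comparison) were not used.

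Genes were kept with filterByExpr (minimum count 10), normalised by TMM and compared with edgeR 4.0.16 (glmQLFit, glmQLFTest, R 4.3.3). FDR is Benjamini-Hochberg over all 11509 tested genes. Ratios were tested by exact permutation. Scripts were checked on simulated data. Annotation was GENCODE M21, and 177 gene names differed from it.

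Members and lists were chosen with earlier results of these data known. Named genes are the 6 members, their tested neighbours, Parg, for each member the 3 genes most alike, and per list the genes passing the FDR or, if fewer than 3, the largest values. Alternative settings were the replicate block, no filter on low counts, leaving out each dish, scaling by RLE or by library size alone, and DESeq2 1.42.0. The fits without both dishes numbered 2 and with an exon length correction (spline with 4 degrees of freedom per dish) were added after the data were seen. Some genes that the naming rule selects are not reported here.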

Additional observations from a re-analysis of the deposited data

How the results depend on the processing

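With 3 dishes per group, the precision for the 6 genes was limited to SEs of 0.124 to 0.287 on the log2 scale. No member had an FDR under 0.05 with more than a 2-fold difference under the alternatives run. Members passing the FDR at any fold numbered 0 except with the replicate block. The labels number the dishes in each group, but same-numbered dishes correlated with r = 0.0963, 0.61 and 0.168 after the group means were subtracted, and 2 of 6 dishes correlated best with their own number, so the numbers were not taken to pair the dishes. With the replicate block, 1 member passed the FDR (Parp14, log2 fold change -0.44, FDR = 0.0157, against 1.56% of tested genes passing and lower), and with the block and the exon length correction 2 did (Parp14, -0.47, FDR = 0.00695, and Parp12, -0.33, FDR = 0.0473, against 2.05%). The block moved the interferon-stimulated genes passing the FDR from 1 to 14, the receptor and JAK-STAT genes from 0 to 2 and all genes passing it from 10 to 330, of which 23 differed by more than 2-fold. Block and exon length correction together gave 16, 2 and 468, of which 26 differed by more than 2-fold. Paired differences of the Parp9 to Dtx3l and Parp14 to Dtx3l ratios have the same mean by construction (exact sign-flip p of 0.75 and 0.25, where 3 pairs cannot give less than 0.25).

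Genes passing the FDR with more than a 2-fold difference numbered 22 with DESeq2 (48 at any fold), 16 without a filter (16 at any fold), 17 with the exon length correction (23 at any fold), 19 without both dishes numbered 2 (40 at any fold) and from 3 to 13 with a dish left out (3 without hPARG dish 1 and 5 without hPARG dish 3). The interferon-stimulated genes passing the FDR numbered 3 with DESeq2 and from 0 to 1 with a dish left out. With a dish left out, the log2 fold change of Zc3hav1 lay between -0.19 and 0.076 (0.022 without hPARG dish 1), the Parp9 to Dtx3l log2 difference between -0.18 and 0.21, and the number of neighbours in the order of levels with ranges apart between 1 and 4. The cause of these changes was not tested.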

Other observations

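For the members, the tested genes with the most similar log2 CPM over the 6 dishes were listed, as a description with no test. The 3 most alike were Mybl2, Fancm and Prdm4 for Dtx3l (Pearson's r from 0.990 to 0.997), and Rbpj, Kansl3 and Zfpm2 for Parp14 (0.998 to 0.999). Oasl2, Nub1 and Pdk4 were listed for Parp10 (0.992 to 0.998), and Pawr, Fchsd1 and Impdh2 for Parp12 (0.991 to 0.992). With 6 dishes, an r over 0.9 was reached by between 1.36% (Parp12) and 13.4% (Zc3hav1) of the tested genes, and no member was among the 3 of another member.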
